A study of Mus musculus with 3 samples.

Results

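The genes described here are 10 genes of oxygen sensing and of the hypoxia response: the transcription factor subunits Hif1a and Epas1, the oxygen sensors Egln1 and Egln3, the ubiquitin ligase subunit Vhl, the hormone gene Epo, and the hypoxia-inducible genes Ndrg1, Car9, Bnip3 and Ankrd37. They were chosen by name, as every probe set that the array platform's annotation pairs with 1 of these symbols and no other. All 10 had a probe set, Bnip3 had 2, and the 11 probe sets stand among 35557 on the array. The 10 genes stand among 19938 genes with a name. The samples were cells sorted for fluorescence after digestion of kidney cortex from adult male Ren1c-YFP mice, in which a transgene of the renin gene Ren1c marks the juxtaglomerular renin cells with yellow fluorescent protein (YFP). Every mouse had received captopril at 0.5 mg/ml in its drinking water together with low-salt chow for 2 weeks. The strain is unspecified in the labels, samples were not pooled, and there is 1 group of 3 arrays, called replicates 2, 4 and 5. No untreated mice and no YFP-negative cells were analysed here, so the values are levels in treated, sorted cells. Any effect of captopril or salt is held in every value and cannot be estimated.

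Hypoxia-inducible factors (HIF) are made of an oxygen-labile alpha subunit and a stable partner. In oxygenated cells, prolyl hydroxylases encoded by the Egln genes modify the alpha subunit, the VHL protein then binds it, and it is degraded. When oxygen is short the subunit persists and raises genes of glycolysis, iron handling, vessel growth and mitophagy. In the adult kidney, HIF-2 (the product of Epas1) drives erythropoietin in interstitial cells of the cortex. In mice, deletion of Vhl in renin cells is known to turn them towards erythropoietin production. Most of this regulation acts on protein stability, which these RNA measurements do not show.

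Each value is a log2 signal of 1 probe set on 1 array. It is read against a background level set separately for each array, the 95th percentile of the signals of 1027 olfactory receptor genes, which came to 6.20, 6.32 and 6.50 in replicates 2, 4 and 5. The height of a gene is its log2 signal minus this level, averaged over the 3 arrays. Signals depend on the probes as well as on the RNA, so heights of single genes are not set against each other. Median heights of lists are given beside that of all genes as a description only. The labels do not state that the arrays came from separate animals, so the p-values given measure only the spread between these samples. Of the marker lists, 8 of 8 measured renin cell genes and 9 of 9 smooth muscle genes were above background. So were 13 of 13 proximal tubule, 7 of 7 thick ascending limb, 11 of 12 distal and collecting duct and 9 of 15 endothelial markers. Podocyte markers (0 of 5) and blood and immune cell markers (0 of 10) were not, and 4 of 8 fibroblast markers were. Of the early dissociation and stress response genes, 8 of 13 were above background. These counts stand beside 37.3% of all 19938 genes above background at the same level. The renin genes themselves were not analysed here. Because the samples hold transcripts of several cell types, fewer cells of a type and less RNA per cell cannot be told apart in what follows.

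Of the 10 genes, 7 passed the test for a signal above background (70.0%; limma, one-sided, adjusted over all genes), against 37.3% of all 19938 genes. The 7 were Hif1a, Epas1, Egln1, Egln3, Ndrg1, Bnip3 and Ankrd37. Vhl did not pass, and Epo and Car9 had means under the level. The median height of the 10 was 2.35, against -0.01 over all genes. The count depended on where background was placed. It was 6 when the level was the 99th percentile of the same receptor genes, where 16.6% of all genes passed. Levels taken from vomeronasal receptor genes or from keratin-associated protein genes gave 8 and 2 members, where 66.0% and 3.56% of all genes passed. Leaving out replicate 2, 4 or 5 gave 6, 7 and 7 members, where 30.3%, 32.1% and 39.2% of all genes passed.

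**Figure D1:**
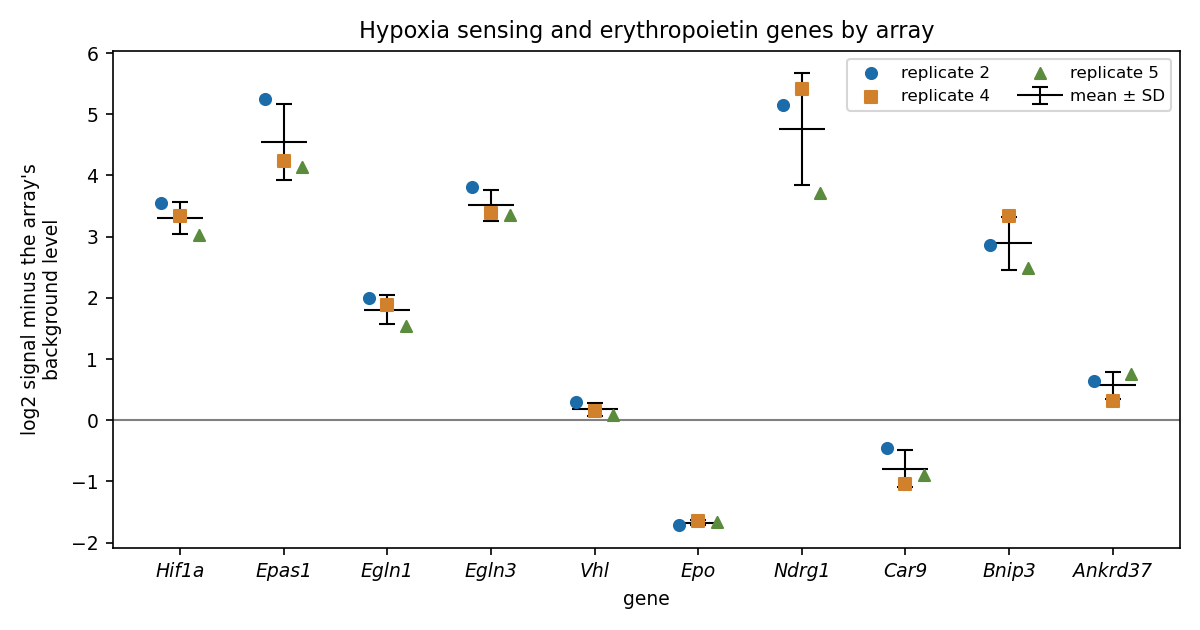
Log2 signal minus the background level of the array (y axis) for the 10 genes (x axis). Coloured symbols are the 3 arrays, black bars the mean ± SD, and the grey line the background level. Bnip3 is shown by its brighter probe set. Epo and Car9 lie under the line on all 3 arrays, and Vhl lies within 0.30 of it. Of the probe sets shown Ndrg1 has the widest spread. The other Bnip3 probe set had an SD of 0.88 in log2 signal, against 0.79 for Ndrg1.

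Both HIF alpha subunits were well above background. Hif1a, the subunit of HIF-1 (probe set 10396421), had log2 signals of 9.75, 9.65 and 9.53 in replicates 2, 4 and 5. The arrays lay within 0.22 of each other, and its SD was higher than that of only 6.4% of the 769 called genes of similar signal (mean within 0.5). Its height was 3.30 (95% interval 2.73 to 3.87, limma adjusted p = 1.17e-05). Epas1, the subunit of HIF-2 (probe set 10447317), had signals of 11.46, 10.55 and 10.64. Replicate 2 was the highest, 0.86 above the mean of the other arrays, which differed by little. The height of Epas1 was 4.54 (95% interval 3.90 to 5.18, limma adjusted p = 3.87e-06).

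The oxygen sensors were above background too. Egln1, which encodes the main prolyl hydroxylase of HIF alpha subunits, PHD2 (probe set 10582712), had signals of 8.20, 8.20 and 8.04. Its height was 1.81 (95% interval 1.28 to 2.33, limma adjusted p = 0.000193). Egln3, which encodes the hydroxylase PHD3 and is itself induced by hypoxia (probe set 10400304), had signals of 10.01, 9.70 and 9.86. Its height was 3.51 (95% interval 2.95 to 4.08, limma adjusted p = 7.88e-06). All 3 arrays were close for both sensors. The SDs of 0.09 and 0.15 exceeded those of 7.2% and 14.1% of called genes of similar signal.

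Vhl, the subunit that recognises hydroxylated HIF alpha (probe set 10540790), had signals of 6.50, 6.47 and 6.59. It lay above the level on all 3 arrays, by 0.30, 0.15 and 0.09, but its mean height of 0.18 (95% interval -0.15 to 0.51) did not pass the test (limma adjusted p = 0.278). With the level from vomeronasal receptor genes its height was 1.01 and it passed (limma adjusted p = 0.000123). A dim probe set bounds the signal only and does not show that the transcript is absent.

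Epo, the hormone that raises red cell production (probe set 10534832), had signals of 4.49, 4.67 and 4.85. These lay 1.72, 1.65 and 1.66 under the level of their arrays, and no setting tried placed the mean above background. Car9, which encodes the membrane-bound carbonic anhydrase IX (probe set 10504337), had signals of 5.75, 5.28 and 5.61. They were 0.45, 1.04 and 0.89 under the level. Its height was -0.80 (95% interval -1.10 to -0.49). With the level from vomeronasal receptor genes the mean of Car9 was 0.04 above it and did not pass (limma adjusted p = 0.520).

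Ndrg1, a hypoxia-induced gene of differentiation and stress responses (probe set 10429140), had signals of 11.35, 11.73 and 10.21. Replicate 5 stood lowest, 1.33 under the mean of the other arrays, while replicates 2 and 4 were within 0.38 of each other. Its height of 4.75 (95% interval 3.98 to 5.53, limma adjusted p = 8.51e-06) was positive on every array. The SD of 0.79 exceeded that of 99.3% of the 289 called genes of similar signal.

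Bnip3, a mitochondrial protein that acts as a receptor in mitophagy, had 2 probe sets to which the annotation gives the same transcript accessions. The brighter, 10568785, had signals of 9.06, 9.65 and 8.98. The other, 10414269, had signals of 9.12, 10.01 and 8.24. Replicate 4 was highest and replicate 5 lowest by both, but the arrays spanned 0.67 by the brighter and 1.77 by the other, and whether both measure the same transcript was not tested. The height was 2.89 with the brighter probe set (95% interval 2.28 to 3.50, limma adjusted p = 3.52e-05) and 2.85 with the mean of both. Across the 999 genes with several probe sets, the median gap between the brightest and the dimmest mean was 0.86, against 0.11 for Bnip3.

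Ankrd37, which encodes a small ankyrin repeat protein and is a direct HIF-1 target, was the member that passed by the least (probe set 10578515). Its signals were 6.84, 6.64 and 7.26, higher than the level by 0.64, 0.32 and 0.75. The height was 0.57 (95% interval 0.17 to 0.97, limma adjusted p = 0.0164). Without replicate 2 the call was lost (height 0.54, limma adjusted p = 0.0769), and with the level at the 99th percentile the mean was under it, at -0.29.

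HIF binds DNA at the hypoxia response element, whose core is ACGTG or GCGTG. Promoter sequences from 250 bases before to 50 bases after the transcription start were available from RefSeq (GRCm38.p6) for 8 of the 10 genes, all but Epas1 and Ndrg1, and both strands were searched. The core was present in 7 of the 8, and ACGTG in 6. Over the 19177 promoters of genes measured here, 51.7% held either core and 21.6% held ACGTG. Vhl was the promoter without a match. The G+C content of the members' promoters was 54.7% (Egln3) to 86.0% (Egln1), against a median of 57.3% over those promoters. Egln3 lay under that median and Car9 was close to it at 58.3%. Vhl (62.7%), Epo (66.3%), Ankrd37 (69.0%), Hif1a (69.3%), Bnip3 (71.7%) and Egln1 lay further above it. The cores contain CG themselves, and the part of G+C content in these shares was not tested. Over all measured genes with a promoter, 47.7% of those with either core were above background and 27.2% of those without, with median G+C contents of 61.0% and 52.3%.

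The promoters of Bnip3 and Ankrd37, which were above background, are shown with those of Car9 and Epo, which were not, because they hold the core on both sides of the call. They are written 5′ to 3′ along the strand of the gene, with matches to either core on either strand in capitals. Adjoining or overlapping matches run together. The promoter of Bnip3 lies at chr7:138909457-138909756 on the minus strand, that of Ankrd37 at chr8:45999801-46000100 on the minus strand, that of Car9 at chr4:43506776-43507075 on the plus strand and that of Epo at chr5:137485767-137486066 on the minus strand.
Bnip3: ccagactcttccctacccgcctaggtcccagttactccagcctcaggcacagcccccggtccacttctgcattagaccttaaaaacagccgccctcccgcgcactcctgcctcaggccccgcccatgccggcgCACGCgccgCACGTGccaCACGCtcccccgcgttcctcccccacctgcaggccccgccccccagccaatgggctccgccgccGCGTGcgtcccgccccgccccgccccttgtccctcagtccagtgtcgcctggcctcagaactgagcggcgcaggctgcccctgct
Ankrd37: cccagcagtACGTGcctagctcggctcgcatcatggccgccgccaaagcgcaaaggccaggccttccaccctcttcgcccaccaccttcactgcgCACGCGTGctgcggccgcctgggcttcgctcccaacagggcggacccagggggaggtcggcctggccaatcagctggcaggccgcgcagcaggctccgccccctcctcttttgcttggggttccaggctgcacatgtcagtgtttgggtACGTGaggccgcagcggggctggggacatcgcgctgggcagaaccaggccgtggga
Car9: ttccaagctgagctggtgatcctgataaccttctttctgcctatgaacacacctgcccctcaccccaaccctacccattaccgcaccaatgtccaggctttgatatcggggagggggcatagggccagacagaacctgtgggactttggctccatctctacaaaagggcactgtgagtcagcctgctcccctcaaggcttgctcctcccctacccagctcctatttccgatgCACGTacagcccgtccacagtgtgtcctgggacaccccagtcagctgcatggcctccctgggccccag
Epo: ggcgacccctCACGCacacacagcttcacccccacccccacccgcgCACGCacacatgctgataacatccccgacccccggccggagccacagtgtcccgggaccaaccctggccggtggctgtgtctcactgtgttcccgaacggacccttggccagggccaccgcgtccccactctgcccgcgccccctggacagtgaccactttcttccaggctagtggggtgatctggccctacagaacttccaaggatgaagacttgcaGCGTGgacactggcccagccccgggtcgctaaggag

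In the Bnip3 promoter 5 matches fell at 4 places, where 2 matches to ACGTG, on opposite strands, overlap in a palindrome whose bases run from -108 to -103 counted from the start. In the Ankrd37 promoter 4 matches fell at 3 places, the nearest with its first base at -6. Car9 had 1 match, whose first base lies at -18. Epo had 3 matches, all GCGTG, of which 1 lies after the start, with its first base at 15. A match is a match of letters and is no evidence that HIF binds there. The known oxygen-dependent control regions of Epo lie outside its promoter.

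**Figure D2:**
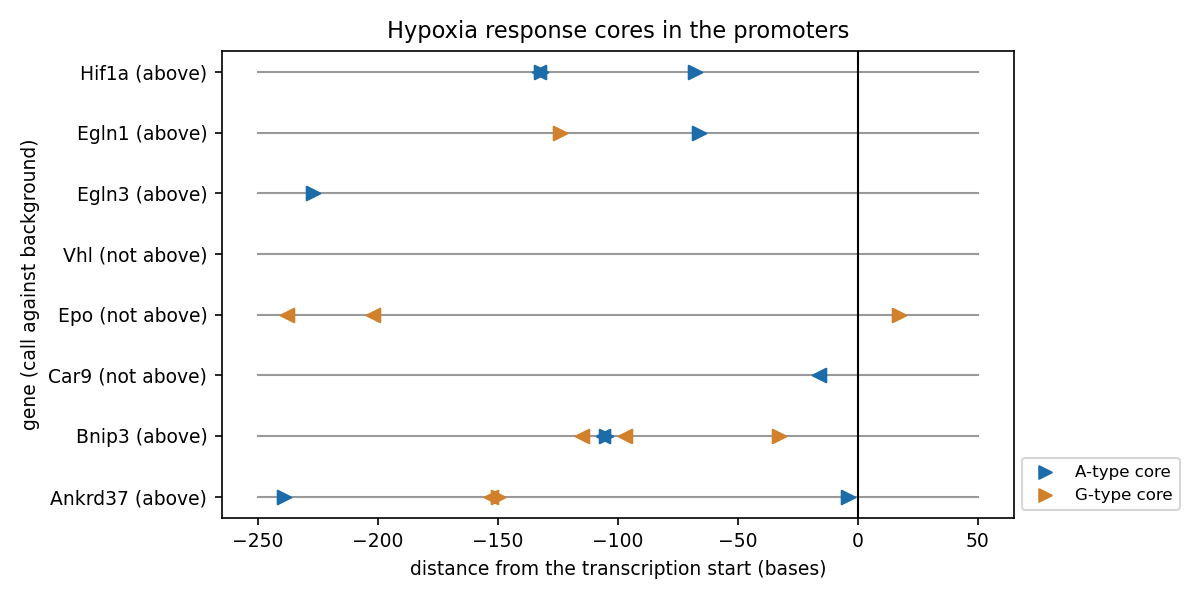
Positions of hypoxia response cores (triangles) in the 8 available promoters, as the distance in bases from the transcription start (x axis, black line at the start). Blue is the core beginning with A, orange the core beginning with G, and the triangle points along the strand of the gene or against it. Of the 8 promoters 7 hold a core, both in genes above background and in genes that were not.

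The other genes of the pathway were read from 7 lists, which share some genes. Together, and without the 10 members, 85 of 124 measured genes were above background (68.5%), with a median height of 0.91, against 37.3% and -0.01 over all genes. Without replicate 2 the count was 65, where 30.3% of all genes passed.

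The machinery around HIF was above background for 12 of 18 genes. Arnt, the stable partner of both alpha subunits, had a mean log2 signal of 8.07 ± 0.15 (SD, n = 3 here and below) and passed (limma adjusted p = 0.000247). Arnt2, its paralogue, did not (6.67 ± 0.04, limma adjusted p = 0.0767), but passed once genes under the median signal were left out (limma adjusted p = 0.0327). Egln2, which encodes the remaining prolyl hydroxylase of the family, PHD1, passed (7.69 ± 0.03), but not at the 99th percentile level (limma adjusted p = 0.0896). The asparagine hydroxylase gene Hif1an had a mean under the level (5.36 ± 0.31), as did the transmembrane prolyl hydroxylase gene P4htm (6.23 ± 0.22) and the third alpha subunit gene Hif3a (5.50 ± 0.23). Among the partners of the VHL protein in its ubiquitin ligase, the elongin genes Eloc (11.24 ± 0.35) and Elob (10.10 ± 0.76) and the RING finger gene Rbx1 (9.87 ± 0.90) passed. The scaffold gene Cul2 did not (6.64 ± 0.08, limma adjusted p = 0.106), but passed with the same filter (limma adjusted p = 0.0456). Ube2d1, a ubiquitin-conjugating enzyme, passed at 7.75 ± 0.25. Of the ligases that act on the sensors, Siah1a passed (9.23 ± 0.16) and Siah2 did not (6.47 ± 0.11, limma adjusted p = 0.445). The coactivator genes Crebbp (9.79 ± 0.63) and Ep300 (8.80 ± 0.64) passed. So did Cited2, which competes with HIF for them (8.78 ± 0.41), the chaperone gene Hsp90aa1 (12.02 ± 0.06) and Os9, which encodes a lectin of the endoplasmic reticulum (7.61 ± 0.59).

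Among HIF targets of glucose uptake and glycolysis, 10 of 16 measured genes were above background and 6 had means under the level. Passing genes included Hk1 (12.22 ± 0.19), Pgk1 (11.80 ± 0.14), Aldoa (11.50 ± 0.18) and Tpi1 (9.92 ± 0.42), which encode enzymes of glycolysis. The hexokinase gene Hk2, the more hypoxia-inducible form, was under the level on average (5.46 ± 0.05). Of the other HIF targets 20 of 29 passed. The count was 13 without replicate 2, where 30.3% of all genes passed. It was 6 with the level at the 99th percentile, where 16.6% of all genes passed. Those above background included Higd1a (10.45 ± 0.54) and Fam162a (9.18 ± 0.11), which encode mitochondrial proteins. Bnip3l (9.77 ± 0.44), the paralogue of Bnip3, and Insig2 (8.67 ± 0.33), a regulator of sterol synthesis, passed too. Anln, which encodes the cytokinesis protein anillin, was under the level (5.47 ± 0.46). The median heights of these lists were 1.48 and 0.71.

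Iron handling genes were above background in 8 of 14 cases (57.1%, against 37.3% of all genes), with a median height of 0.55. With the level at the 99th percentile 3 of 14 were, where 16.6% of all genes passed. The ferritin genes Fth1 (12.76 ± 0.09) and Ftl1 (11.03 ± 0.60), which store iron, and the iron regulatory protein genes Aco1 (8.78 ± 0.15) and Ireb2 (7.61 ± 0.43) passed, while the ferroxidase gene Heph did not (5.64 ± 0.30). In the list around erythropoietin, 12 of 16 genes passed, with a median height of 0.56. The count was 4 of 16 without replicate 2, where 30.3% of all genes passed, 6 without replicate 4, where 32.1% did, and 2 with the level at the 99th percentile, where 16.6% did. Without replicate 2 and at the 99th percentile the share of this list was thus under that of all genes. Passing genes included the zinc finger factor gene Gata3 (8.68 ± 0.26), Hnf4a (8.46 ± 0.58), a factor that activates Epo, Pdgfrb (7.90 ± 0.38), carried by mural cells and by the interstitial cells that make erythropoietin, and Jak2 (7.50 ± 0.17), the kinase of the erythropoietin receptor. Pdgfra, a fibroblast receptor gene, was under the level (6.08 ± 0.19). Mitophagy genes passed in 14 of 15 cases, with a median height of 2.25. They included Gabarap (12.16 ± 0.41) and Map1lc3b (10.15 ± 0.18), whose products bind mitophagy receptors on the autophagosome, and Phb2 (10.03 ± 0.20), a prohibitin of the inner mitochondrial membrane, and Bnip2 (10.61 ± 0.23). Bnip1 did not pass (5.94 ± 0.18).

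**Figure D3:**
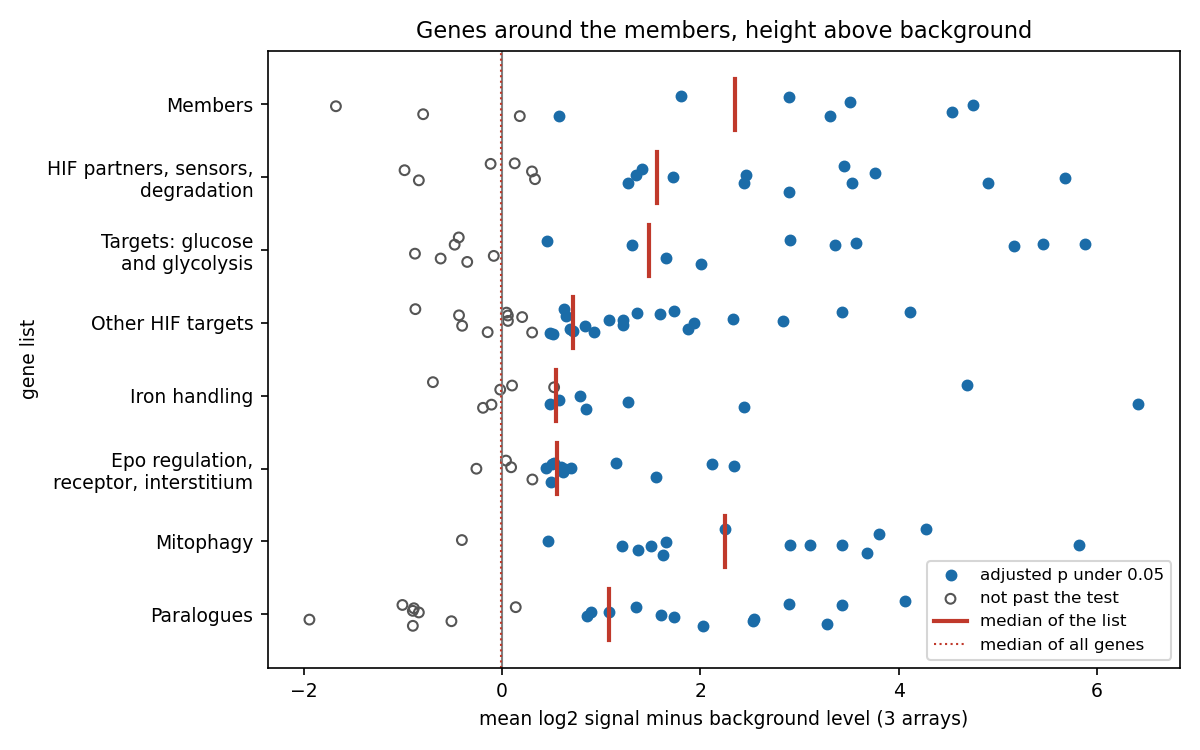
Mean height above background over 3 arrays (x axis, log2) of each measured gene in the list of members and the 7 lists around it (y axis). Filled points passed the test, open points did not, red bars are list medians and the dotted line is the median of all genes. The median of the members is 2.35 and those of the other lists lie between 0.55 and 2.25.

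Paralogues showed which forms of each family were measured. Of the Ndrg genes, Ndrg2 (10.41 ± 0.63) and Ndrg3 (9.23 ± 0.20) were above background with Ndrg1, and Ndrg4 was not (6.48 ± 0.33, limma adjusted p = 0.419). Of 15 carbonic anhydrase paralogues of Car9, 9 were above background, against 37.3% of all genes. They included the cytosolic Car2 (8.87 ± 0.39), the membrane-bound Car4 (8.88 ± 1.46), Car12 (8.08 ± 1.27), Car14 (8.37 ± 0.41) and Car15 (9.62 ± 1.01), and the mitochondrial Car5b (7.42 ± 0.82). Car3 (7.95 ± 1.00), Car8 (7.24 ± 0.42) and Car11 (7.20 ± 0.15) also passed. With the level at the 99th percentile, where 16.6% of all genes passed, Car3, Car4, Car5b, Car8, Car11 and Car12 lost their call. Car2, Car14 and Car15 kept theirs. Car12 is, like Car9, a known HIF target, and missed the threshold without replicate 2 (limma adjusted p = 0.06). Car5b did so without replicate 2 (limma adjusted p = 0.0808) and also without replicate 4 (limma adjusted p = 0.0525), where Car8 did so too (limma adjusted p = 0.0528). Car1 (5.34 ± 0.30), Car5a (5.83 ± 0.26), Car6 (4.40 ± 0.10), Car7 (5.44 ± 0.20), Car10 (5.44 ± 0.26) and Car13 (5.45 ± 0.36) had means under the level.

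The members also differed in how the arrays compared, which 3 arrays allow to be described but not tested. Over all 7437 called genes the median deviation of an array from the mean of the other arrays was 0.12, 0.05 and -0.19 in replicates 2, 4 and 5. Small deviations of a gene are read beside these medians, and their source was not tested. Ndrg1 deviated by 0.38, 0.95 and -1.33. After quantile normalization its deviation in replicate 5 was -1.07, and after subtraction of the level it was -1.57. Markers of 2 of the 3 tubule lists were low in the same array, with medians over called markers of -0.61 in replicate 5 for the proximal tubule and -0.75 for the thick ascending limb. These medians were -0.38 and -0.46 after quantile normalization, and -0.86 and -0.996 after subtraction of the level. Distal and collecting duct markers did not share this, with a median of 0.09 in replicate 5, and 8 of 11 called ones were lowest in replicate 2 and 2 of 11 in replicate 5. Replicate 5 was the lowest array for 11 of 13 proximal tubule and 6 of 7 thick ascending limb markers, against 52.8% of all called genes. It was also the lowest for 9 of 12 called HIF partners, with a median of -0.48, and for 11 of 14 called mitophagy genes (-0.28). Of the called genes in the list around erythropoietin, 4 of 12 were lowest there. The median height of the measured proximal tubule markers was 4.83, 4.76 and 3.67 in replicates 2, 4 and 5, and that of thick ascending limb markers 4.15, 4.32 and 3.10. The part of proximal tubule and thick ascending limb RNA in the spread of Ndrg1 was not tested. The called carbonic anhydrase paralogues were lowest in replicate 5 in 7 of 9 cases, with Car4 at 9.75, 9.69 and 7.20 and Car12 at 8.50, 9.07 and 6.65.

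The called genes whose centred profiles over the 3 arrays were nearest to that of Ndrg1 were Cmc1, Acmsd and Slc7a8, at Euclidean distances of 0.04, 0.05 and 0.07 log2 units. Cmc1 encodes a mitochondrial assembly factor, Acmsd an enzyme of tryptophan breakdown and Slc7a8 an amino acid transporter subunit. Acmsd had signals of 8.81, 9.13 and 7.68. Among 7437 called genes 10 lay within 0.1 of Ndrg1 and 129 within 0.3, and 3 arrays make such likeness easy to reach.

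**Figure D4:**
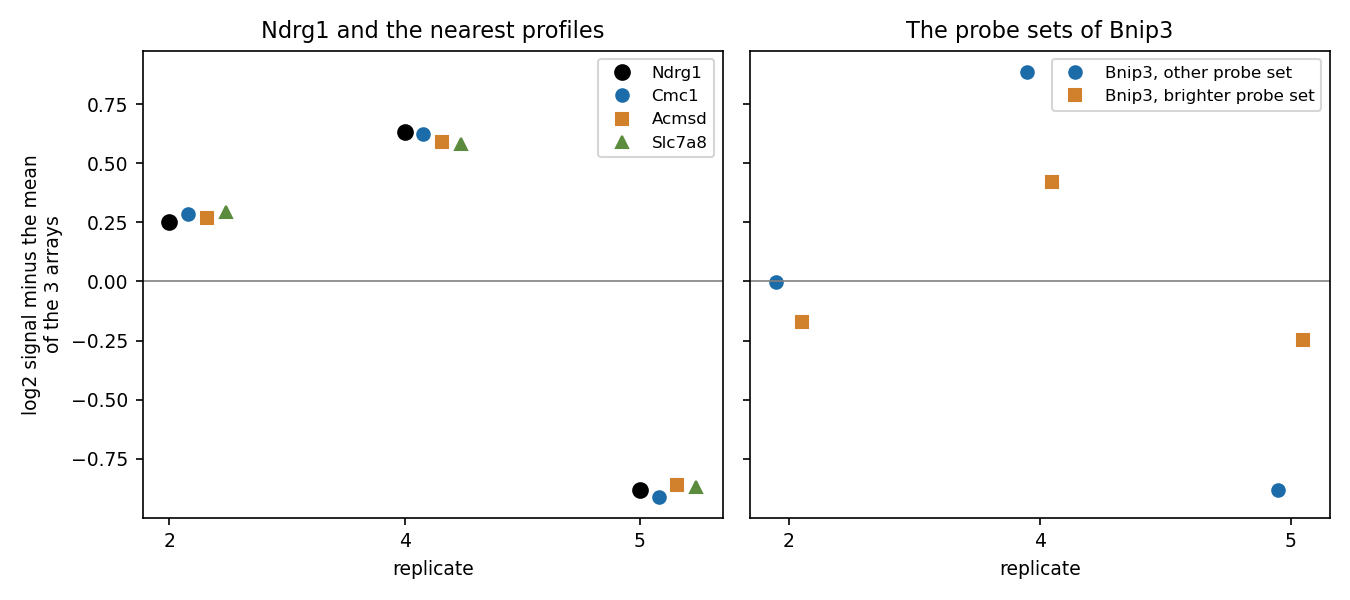
Log2 signal minus the mean of the 3 arrays (y axis) by replicate (x axis). The left panel shows Ndrg1 with the 3 called genes of nearest profile, all lowest in replicate 5, and the right panel the 2 probe sets of Bnip3, which span 0.67 for the brighter and 1.77 for the other.

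Epas1 deviated by 0.86 in replicate 2, -0.50 in replicate 4 and -0.36 in replicate 5. The deviation in replicate 2 was 0.76 after quantile normalization and 1.07 after subtraction of the level. Called endothelial markers were also high in replicate 2, with a median deviation of 0.89, and 8 of 9 were highest there, against 43.8% of all called genes. The called early dissociation and stress response genes were high in the same array, with a median deviation of 0.70, and 7 of 8 were highest there. The 5 stress response genes that were not called deviated there by -0.07 (Junb) to 0.23 (Fos). After quantile normalization the medians over called genes were 0.73 for the endothelial markers and 0.60 for the stress response genes. The median height of all 15 measured endothelial markers was 0.96, 0.45 and 0.19 in replicates 2, 4 and 5. Flt1, a receptor of vascular endothelial growth factor, deviated by 1.67 in replicate 2, the receptor phosphatase gene Ptprb by 2.40, Emcn by 0.89 and Egfl7 by 0.80. These genes had mean signals of 7.58 ± 0.97, 8.56 ± 1.44, 9.22 ± 0.56 and 7.62 ± 0.48 and passed, while the endothelial transcription factor gene Erg (6.13 ± 0.62) did not. Renin cell and smooth muscle markers deviated by medians of 0.31 and 0.27 in replicate 2, and 6 of 8 and 7 of 9 called ones were highest there. The parts of endothelial RNA and of the stress response in the level of Epas1 were not tested. Without replicate 2 the height of Epas1 was 4.19 and its SD 0.07, against 0.50 with all arrays.

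By its brighter probe set Bnip3 deviated by 0.63 in replicate 4, and by 0.49 after quantile normalization. That probe set lay 0.36 under the other in replicate 4 and 0.74 above it in replicate 5, so these deviations depend on the probe set. Ankrd37 was lowest in replicate 4 (-0.41) and highest in replicate 5 (0.52), the reverse of Ndrg1, Bnip3 and the thick ascending limb markers. Hif1a, Egln1 and Egln3 deviated by at most 0.23 on any array in the signals as deposited, and in replicate 5 the deviations of Hif1a (-0.17) and Egln1 (-0.16) changed sign after quantile normalization, to 0.14 and 0.06. Egln3 then deviated by -0.36 in replicate 4 and 0.30 in replicate 5. After subtraction of the level the widest deviations were -0.41 and -0.40 in replicate 5 for Hif1a and Egln1, and 0.44 in replicate 2 for Egln3.

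**Figure D5:**
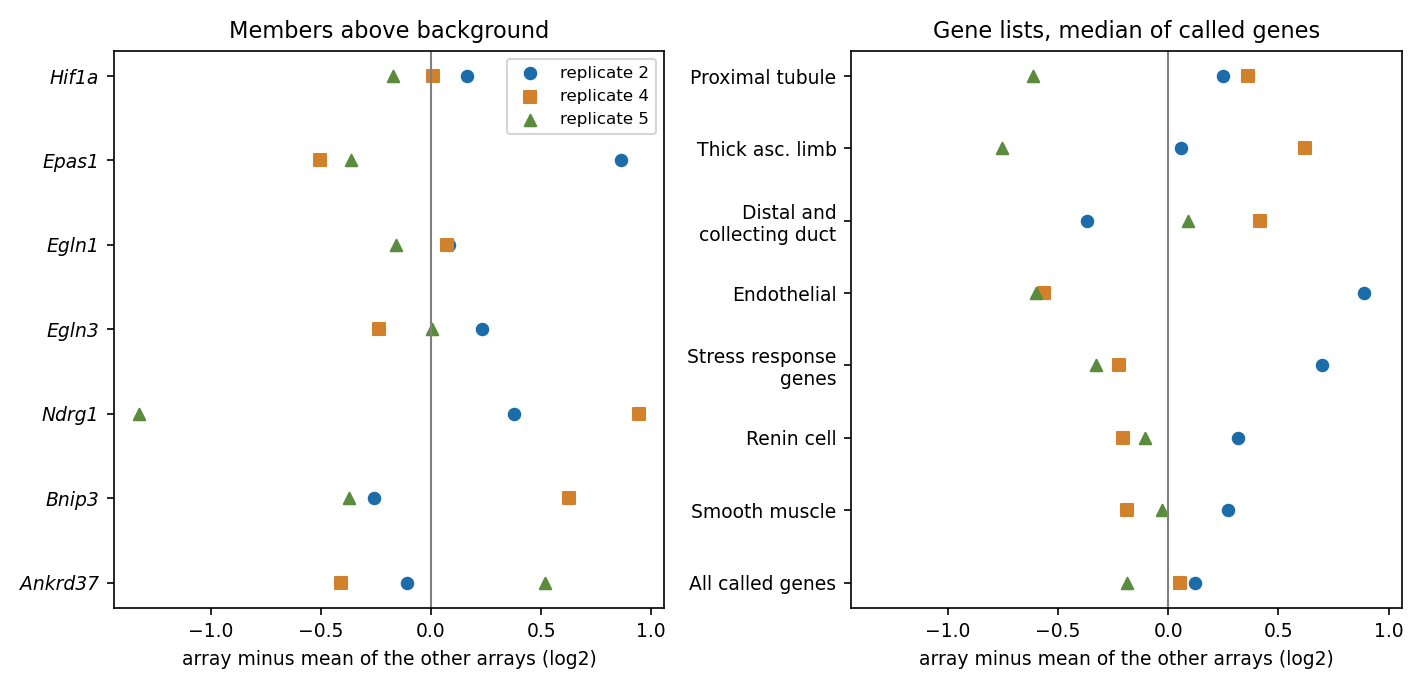
Deviation of each array from the mean of the other arrays (x axis, log2) for the 7 members above background (left). The right panel gives the median over called genes of 7 lists and over all called genes. Bnip3 is shown by its brighter probe set. Ndrg1 is lowest in replicate 5, as are the medians of the proximal tubule, thick ascending limb and endothelial markers, the stress response genes and all called genes. The medians of the distal and collecting duct, renin cell and smooth muscle markers are not lowest there. Epas1 is highest in replicate 2, as are the medians of the endothelial markers and the stress response genes. By smaller margins the medians of the renin cell and smooth muscle markers and of all called genes are highest there too.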

How the data were processed

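The 3 samples were measured on single-colour Affymetrix arrays after 1 round of NuGEN amplification, per the labels' protocols. The authors deposited a log2 signal for each probe set on each array. The submitters' processing notes name Affymetrix Expression Console. How it summarised, corrected and normalized the probes is not given in the sources used here. No source states the log base, and log2 was taken from the range of the values, whose medians were 6.09, 6.11 and 6.21. Names came from the platform's annotation: 21789 had 1 symbol, 1621 several and 12147 none, and the last 2 kinds were left out. Symbols were checked by Entrez identifier against RefSeq (21698 matched, 0 changed). The brightest probe set was taken for genes with several.

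Heights above each array's level were fitted for all 19938 genes in R 4.3.3 with limma 3.58.1 (an intercept, eBayes with trend, one-sided, Benjamini-Hochberg over all genes, threshold 0.05). At an unadjusted p under 0.05, 8086 genes passed. Intervals are two-sided 95% intervals of the same fit. The number of arrays limits the precision. The test was also run on simulated data with independent noise, which hold no shift shared by the genes of an array. Summaries used Python 3.11.15 and pandas 2.3.3. The members and lists were chosen with earlier results of these data known. Named genes are all members, all measured paralogues and HIF partners, up to 4 called genes of lowest adjusted p and the gene of highest p in each other list, and the 3 nearest profiles of called members whose arrays span over 1 log2 unit. Marker lists are given as counts, apart from endothelial genes. Alternatives were other background levels, probe set rules and scalings, no trend, a filter on dim genes, and each replicate left out.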

Additional observations from a re-analysis of the deposited data

How the results depend on the processing

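The choice of background moved the counts most. With the 99th percentile of the olfactory receptor genes as the level, 3303 of all genes and 43 genes of the pathway lists were above background, in place of 7437 and 85. With a level from vomeronasal receptor genes 13165 of all genes were, and 10 genes named here gained a call: Vhl, Arnt2, Cul2, Siah2, P4htm, Ndrg4, Pdgfra, Bnip1, Car5a and Erg. With one from 44 keratin-associated protein genes the counts were 2 members, Epas1 and Ndrg1, 13 pathway genes and 709 genes in all. At the 99th percentile the means of Ankrd37 (-0.29) and Car11 (-0.0035) lay under the level, and 14 other named genes lost their call with a mean above it: Egln2, Os9, Ube2d1, Jak2, Pdgfrb, Ireb2, Car3, Car4, Car5b, Car8, Car12, Flt1, Ptprb and Egfl7. With the keratin-associated level these genes had negative heights: Acmsd -0.12, Ankrd37 -1.76, Arnt -0.60, Car11 -1.47, Car12 -0.59, Car14 -0.30, Car3 -0.72, Car5b -1.25, Car8 -1.43, Egfl7 -1.05, Egln1 -0.52, Egln2 -0.97, Flt1 -1.09, Hnf4a -0.20, Ireb2 -1.06, Jak2 -1.17, Os9 -1.06, Pdgfrb -0.77, Ptprb -0.11, Slc7a8 -0.079 and Ube2d1 -0.92. Leaving out each replicate in turn gave 6 to 7 members, 65 to 86 pathway genes and 6051 to 7806 genes in all, and a median SD of the called members of 0.11 to 0.22 in place of 0.31. Quantile normalization, the mean of probe sets and the fit without trend changed no call of the 79 genes named. A filter on genes under the median signal left Epo and Car9 untested, changed no call of the other members, and gave calls to Arnt2 and Cul2. No paired analysis was possible because the series holds 1 group. Dim probe sets such as those of Vhl, Car9 and Epo limit what can be said of low transcripts.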
